A study of Clarias macrocephalus with 14 samples.

Results

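In levels scaled between libraries, 150 Gene IDs of the broadhead catfish Clarias macrocephalus crossed between high and low 4 times over early life. Their levels were high at 3, 13, 17 and 24 days post fertilization (dpf) and low at 5, 14 and 16 dpf, called the high ages and the low ages here, and an age of 3 dpf is also written as day 3. The members were chosen from their measured levels, out of 18644 Gene IDs that passed a filter on low counts and 23837 in all. For each Gene ID the mean level of each age was taken, plus 1. A member had a lowest high-age value of at least 10 that was at least 1.3 times its highest low-age value, and was not among the 60 Gene IDs with most counts at 17 dpf. This held for 269 Gene IDs, and the 150 with the largest ratio of these values were kept. On library totals without that scaling, 27 of the 150 met these conditions. The levels that set the high ages apart from the low ages were used to choose the members, so they are described without a test. The rule put a lower limit on each high age and an upper limit on each low age but fixed no order within either set, and changes within the sets were tested. These limits left out Gene IDs where a change in either direction took a high age under its limit or a low age over it. Counts of rises and of falls are therefore both partly set by the rule. The shares over all tested Gene IDs, given beside them, were not limited in this way.

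The libraries were made from RNA of whole fry, depleted of ribosomal RNA, with 2 libraries at each of 7 ages and 14 in all. The labels give no strain or treatment, and sex was unknown. Nothing in them says that the replicates were separate spawns or batches of fry, so the p-values cover the spread between these libraries alone, and that spread may be technical. Levels are given in CPM, counts per 1e+06 counts of a library after TMM scaling, a method that sets library sizes so that most genes keep their level. Transcript lengths are not used here, so levels were compared within a Gene ID and not between Gene IDs.

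Broadhead catfish breathe both water and air, and air breathing depends on branched outgrowths of the gill arches that lie in a chamber above the gills and form during larval life. Over the same period fry of bony fishes use up the yolk, begin to feed and build most organs, so the cell make-up of a whole fry changes from age to age. In RNA from whole fry, fewer cells of a type and less RNA per cell cannot be told apart. The table does not pair Gene IDs with gene names, so no function is given to any member. Members are named by rank, with rank 1 for the largest ratio of the rule, and the Gene ID is printed for the 2 highest.

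Every library of a high age stood above every library of a low age in the median over the members. The median member level was 30.2 and 32.2 CPM on day 3, 30.7 and 29.3 on day 13, 44 and 35.3 on day 17 and 59.7 and 68.9 on day 24. It was 14.9 and 13.3 CPM on day 5, 12.1 in both libraries of day 14, and 16.9 and 16.6 on day 16. Over all 18644 tested Gene IDs the median of the mean level at an age moved little, between 9.59 CPM at 24 dpf and 12.7 at 5 dpf. TMM scaling keeps such medians nearly level, so nothing is read from this. Summed, the members held 1.11% ± 0.0478 (SD, n = 2) of the counts on day 3, 1.05% ± 0.0412 (SD, n = 2) on day 13, 0.656% ± 0.0245 (SD, n = 2) on day 17 and 1.13% ± 0.364 (SD, n = 2) on day 24. Their share was 0.492% ± 0.0337 (SD, n = 2) on day 5, 0.399% ± 0.00503 (SD, n = 2) on day 14 and 0.534% ± 0.0126 (SD, n = 2) on day 16. These shares use no scaling, and the lowest high-age library, with 0.639% at 17 dpf, was above the highest low-age library, with 0.543% at 16 dpf. The members were chosen from their levels in these same libraries, so this order is no separate check of the split. Member by member, the split did not hold for most on unscaled library totals. There, 27 members met both limits of the rule, and 40 had every high-age library above every low-age one. That order was seen in 0.628% of all tested Gene IDs on totals.

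**Figure D1:**
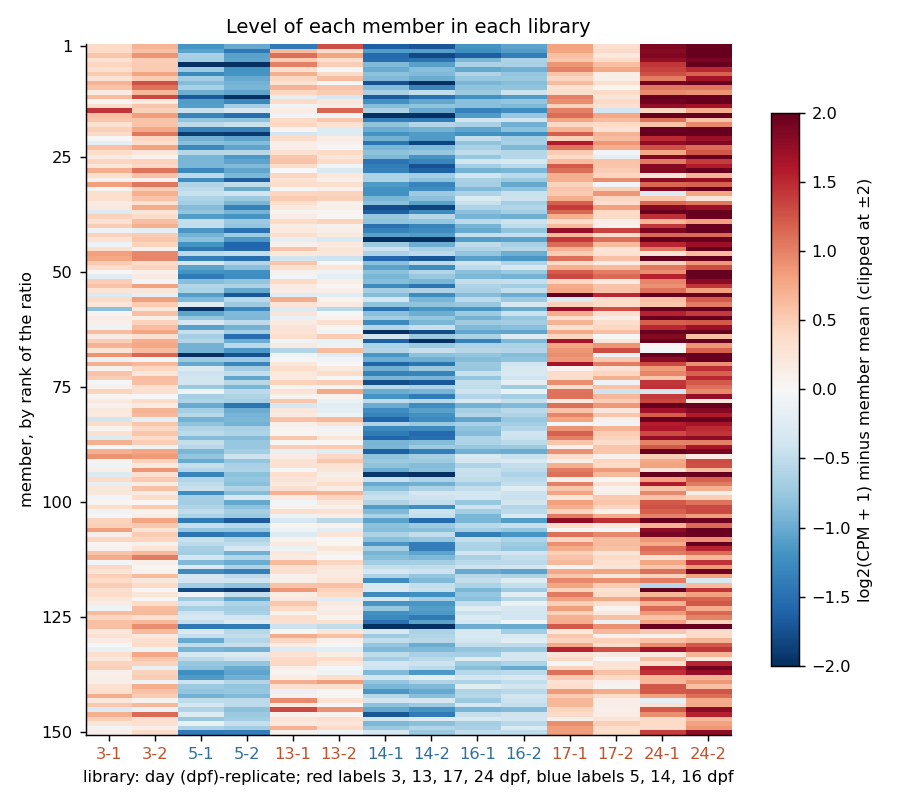
Level of each of the 150 members (rows, rank 1 at the top) in each of the 14 libraries (columns, age and replicate), as log2(CPM + 1) minus the member's mean over the libraries, with colours clipped at 2 either way. The columns of 5, 14 and 16 dpf are blue from top to bottom. The deepest red lies at 24 dpf, where 129 members had their highest mean with TMM scaling.

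Library size moved with the same split of ages. Library totals were 1460853 to 3660103 counts at the high ages and 4502582 to 8837320 at the low ages. After TMM scaling they were 725607 to 4864262 and 5771592 to 11611836, so in neither form did the 8 high-age libraries overlap the 6 low-age ones. Library size and the split of ages cannot be told apart in this design, and the part of library size in the alternation was not tested. Among the high ages, both the scaled total and the members' median set 24 dpf apart from 17 dpf and 17 dpf from the younger ages, with the smallest libraries at the highest level. Among the low ages, 16 dpf had the largest libraries and the highest median. No member was at 0 in any library, and the median count of a member was 44 to 193 in a library. For 7 members a library had fewer than 10 counts, as low as 4, in most cases at 24 dpf.

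**Figure D2:**
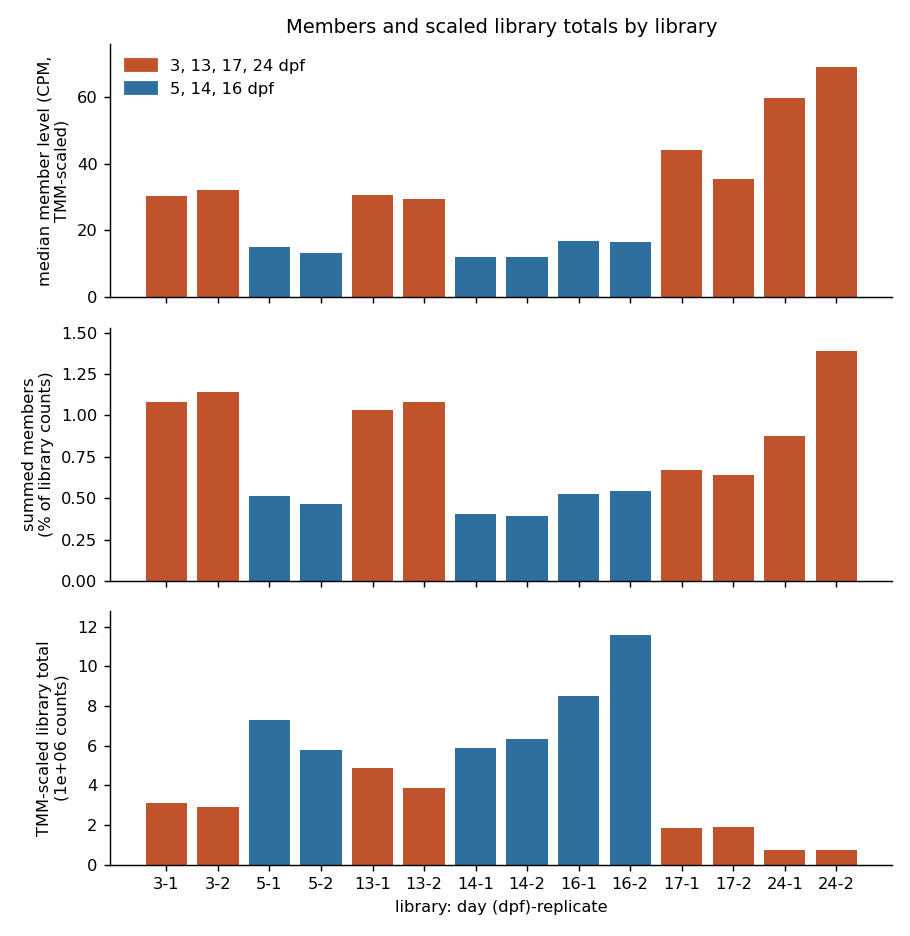
For each library (age and replicate on the horizontal axis), bars show the median member level in CPM, the members' summed share of the library's counts in percent and the TMM-scaled library total in units of 1e+06 counts, red for 3, 13, 17 and 24 dpf and blue for 5, 14 and 16 dpf. The red bars are above the blue ones in the upper panels (0.639% or more against 0.543% or less for the share) and below them in the lowest panel (4864262 counts or less against 5771592 or more).

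The ratio that ranked the members had a median of 1.57, with 100 members at 1.5 or more and 9 at 2 or more. It was 3.009 at rank 1 and 1.423 at rank 150, and the Gene ID at rank 151, just outside, had 1.42. At the limit of 1.3, the last Gene ID inside had 24.3 against 18.7 and the nearest one outside had 42.1 against 32.4, for a ratio of 1.299. In the mirrored pattern the lowest value of 5, 14 and 16 dpf was at least 10 and at least 1.3 times the highest of the other ages. As in the rule, 1 was added to each mean. The 60 Gene IDs with most counts at 17 dpf were not left out there, and with them kept the rule itself was met by 273. The mirrored pattern was met by 334 of the 18644 tested Gene IDs with TMM scaling, and by 516 Gene IDs on unscaled library totals. No count for other splits of the ages is given beside these, so whether they are large for a split was not tested.

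With TMM scaling, the steps between high and low ages were of like size at each crossing in the median over members, while on unscaled library totals the step from 16 to 17 dpf was 1.07-fold. From 3 to 5 dpf the median level was 2.26-fold lower, with 1.43-fold to 7.84-fold over the members. From 5 to 13 dpf it was 1.97-fold higher (1.42-fold to 7.47-fold). The fastest crossings took a single day. From 13 to 14 dpf the median was 2.19-fold lower (1.44-fold to 6.17-fold), and from 16 to 17 dpf it was 2.3-fold higher (1.44-fold to 6.56-fold). By the rule no member could step by less than its ratio, at least 1.423, which set the low end of each range. All tested Gene IDs had median ratios of 1.03, 0.983, 1.01 and 1 at the same steps. TMM scaling holds such medians near 1, and on unscaled library totals the one from 16 to 17 dpf was 0.507. A difference of 2-fold or more was seen in 100 members from 3 to 5 dpf, 73 from 5 to 13 dpf, 91 from 13 to 14 dpf and 100 from 16 to 17 dpf. Since members were chosen for gaps between these ages, the counts follow in large part from the choice. No share over all tested Gene IDs is given beside them.

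Library by library, 143 of the 150 members had all 8 high-age libraries above all 6 low-age libraries. This order was seen in 3.73% of all tested Gene IDs, and the members' count follows from how they were chosen. In the other 7 members at least 1 high-age library was below a low-age one. The lowest high-age library was a 17 dpf library for ranks 15, 76 and 126, a 13 dpf library for ranks 1 and 67, and a 24 dpf library for ranks 117 and 118. At rank 15 the overlap was narrow, with 16.7 CPM in replicate 2 of 17 dpf against 17.2 CPM in replicate 2 of 5 dpf. At rank 76 it was wider, with 7.85 CPM in replicate 2 of 17 dpf against 10.1 CPM in replicate 1 of 5 dpf.

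The member with the largest ratio, Gene ID 108280969, also overlapped. It had 289 and 353 CPM on day 3, 82.4 and 541 on day 13, 387 and 278 on day 17, and 810.1 and 3104 on day 24. Its low-age libraries had 96.8 and 109 CPM on day 5, 70.2 and 66.6 on day 14, and 96.8 and 106 on day 16. Replicate 1 of 13 dpf was therefore below the 5 dpf and 16 dpf libraries, and the replicates of 13 dpf (312 ± 325 CPM, SD, n = 2) and of 24 dpf (1957 ± 1622, SD, n = 2) were far apart. Among the high ages it was higher at 24 than at 3 dpf by a log2 change of 2.61 (edgeR quasi-likelihood test, Benjamini-Hochberg adjusted p = 0.000444). Without replicate 2 of 24 dpf that change was 1.34 and no longer passed (adjusted p = 0.0701), and on unscaled library totals it was 1.21 (adjusted p = 0.0481). A single assembled transcript, TRINITY_DN150114_c0_g2_i1, held 98.9% of its counts.

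Gene ID 108274549, at rank 2 with a ratio of 3, showed the alternation without such spread. Its levels were 217 and 251 CPM on day 3, 260.5 and 215 on day 13, 289 and 218 on day 17, and 594 and 713 on day 24. At the low ages it had 78.9 and 62 CPM on day 5, 76.8 and 77.6 on day 14, and 70.5 and 76.6 on day 16. The lowest high-age library, at 215 CPM, was far above the highest low-age one, at 78.9. Its changes among 3, 13 and 17 dpf did not pass the test, with log2 changes of 0.03 for 13 against 3 dpf (edgeR, adjusted p = 0.92) and 0.09 for 17 against 13 dpf (adjusted p = 0.673). At 24 dpf it was higher than at 3 dpf by 1.48 (adjusted p = 3.86e-07), and on unscaled library totals that difference was 0 (adjusted p = 0.997). Of its 14 transcripts, TRINITY_DN156476_c5_g2_i39 held 96.3% of the counts.

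**Figure D3:**
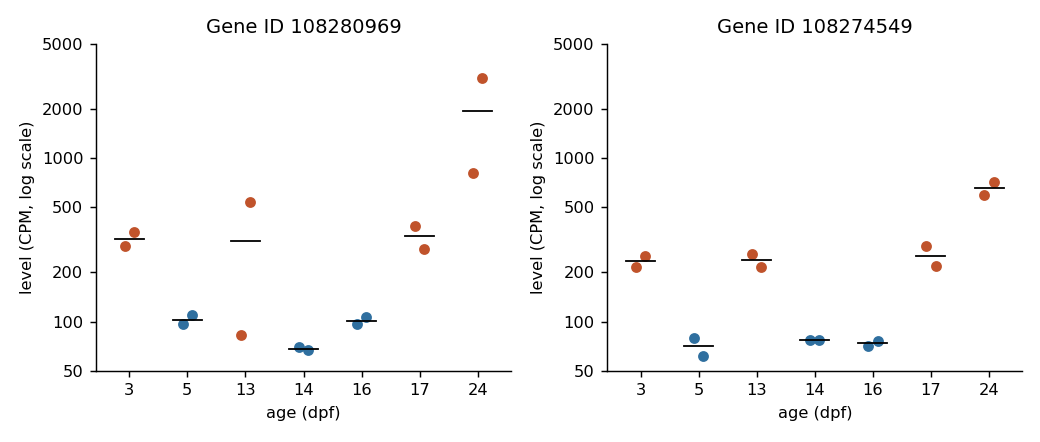
Level in CPM (log axis) of the members at ranks 1 and 2 in each library (points; red for high ages, blue for low ages) with the mean of each age (bars) against age in dpf. Gene ID 108274549 has each red point above each blue one, while Gene ID 108280969 has a red point of 82.4 CPM at 13 dpf within the range of the blue points.

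Other members showed how uneven the crossings could be. The member at rank 3 had the largest 13 to 14 dpf step, 6.17-fold, with 269.9 and 216 CPM at 13 dpf and 42 and 35 a day later. It then had 39.1 and 48.1 CPM at 16 dpf and 189.9 and 144 at 17 dpf. The replicates of each age were close beside these gaps, and neither pair overlapped the other. The member at rank 5 had the largest 5 to 13 dpf step, from 5.33 and 5.89 CPM to 57.2 and 39.6. The member at rank 68 had the largest step from 3 to 5 dpf, 7.84-fold, with 22.5 and 26.9 CPM and then 1.78 and 2.77. The largest 16 to 17 dpf step, 6.56-fold, was at rank 55, with 19.4 and 17.6 CPM at 16 dpf and 150.2 and 104 at 17 dpf. In this member 24 dpf (156 and 158 CPM) was close to 17 dpf, with a log2 change of 0.31 that did not pass (edgeR, adjusted p = 0.24).

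With TMM scaling, 24 dpf was the highest of the high ages for most members. The highest mean was at 24 dpf in 129 members, at 17 dpf in 10, at 3 dpf in 6 and at 13 dpf in 5. The lowest of the 4 was at 13 dpf in 87. These counts were not made on unscaled library totals. No share over all tested Gene IDs is given beside them, so they are a description only. Against 3 dpf, 96 of 150 members (64%) rose to 24 dpf and 0 fell, where 16.9% of all tested Gene IDs rose and 15.6% fell, 32.5% in all (edgeR quasi-likelihood test over all Gene IDs, adjusted p under 0.05). At an unadjusted p under 0.05, 2 members were lower. The members were chosen by their levels at both ages, and the other Gene IDs were not. How much of the difference in these shares follows from that choice was not tested. DESeq2 and limma-voom also called 0 lower, edgeR with upper-quartile scaling 2, and edgeR with any single library left out 0 or 1. The median log2 change was 0.97 in the members and -0.13 over all Gene IDs. With TMM scaling, 73 members were called with at least a 2-fold rise and 16 with at least 4-fold. No share over all tested Gene IDs is given at these fold limits, so nothing is read from these 73 and 16. The direction turned with the scaling: on unscaled library totals 19 members were higher and 77 lower, where 1.96% of all tested Gene IDs were higher and 71.6% lower, with a median of -0.53 against -1.64 over all Gene IDs. A scaling shifts all Gene IDs alike, so for a fixed list the gap between these medians stays nearly the same by arithmetic. The list itself was chosen with TMM scaling, and whether its members rose or fell depended on the scaling.

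The largest of these rises was at rank 58, a member of low level in young fry. It had 8.02 and 17.9 CPM on day 3, 12.3 and 10 on day 13, 52 and 38.2 on day 17, and 138 and 172 on day 24. Its low-age libraries lay between 3.15 and 6.98 CPM; replicate 1 of day 3 was the nearest high-age library to them. The log2 change from 3 to 24 dpf was 3.59 (edgeR, adjusted p = 5.97e-10). At the other end was rank 90, whose 24 dpf libraries, at 36.6 and 28.9 CPM, were below the 49.1 and 47.5 of 3 dpf; its log2 change of -0.56 did not pass (adjusted p = 0.0679).

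With TMM scaling, most members also rose in the last week. In 24 against 17 dpf, which shares its 24 dpf libraries with the comparison above, 86 members (57.3%) rose and 0 fell, where 13.5% of all tested Gene IDs rose and 11.8% fell, 25.4% in all, and DESeq2 and limma-voom also called 0 lower. At an unadjusted p under 0.05 edgeR also had 0 lower. Here too both ages were used by the rule, and its part in these shares was not tested. The median log2 change was 0.71 in the members and -0.09 over all Gene IDs. The largest was at rank 12, with 158 and 92.1 CPM at 17 dpf and 662 and 865 at 24 dpf (log2 change 2.61, edgeR adjusted p = 2.33e-08). With any single library left out, the members' median log2 change was 0.55 to 0.86. With the 4 libraries alone 51 members changed, and no share over all tested Gene IDs is given for that fit. On unscaled totals 41 members changed, of which 40 were higher, where 5.86% of all Gene IDs were higher and 22.7% lower. The replicates of 24 dpf also differed most, by a median of 0.33 on the log2 scale in the members and 0.47 over all Gene IDs.

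Between 13 and 17 dpf, 58 members (38.7%) rose and 3 (2%) fell (edgeR, adjusted p under 0.05). Over all tested Gene IDs 26% rose and 23.7% fell, 49.6% in all. The share of members that changed, 40.7%, was below that of all Gene IDs, and nothing is read from it. Both ages were used by the rule, and its part in the directions was not tested. The members' median log2 change was 0.33, against 0.02 over all Gene IDs. The largest rise was at rank 104, with 17.7 and 14.9 CPM at 13 dpf and 79.4 and 64.3 at 17 dpf (log2 change 2.13, adjusted p = 5.48e-09). Of the members that fell, rank 145 had 210.3 and 159 CPM at 13 dpf and 115 and 90.5 at 17 dpf (log2 change -0.85, adjusted p = 0.00029). Without replicate 1 of 17 dpf the members' median log2 change was 0.18. On unscaled totals most calls turned, with 5 members higher and 112 lower, where 6.24% of all Gene IDs were higher and 64% lower.

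The comparison of 13 with 3 dpf had the fewest called members of the 4 among high ages. From 3 to 13 dpf, 7 members rose and 34 fell, and 109 did not pass the test. Over all tested Gene IDs 20.8% rose and 20.2% fell, and 27.3% of the members changed, against 41% of all. The rule kept both ages above the low ages, so Gene IDs with a low level at either were left out, and nothing is read from the lower share. The member at rank 145 had the largest rise, from 70 and 77.2 CPM to 210.3 and 159 (log2 change 1.33, edgeR adjusted p = 1.69e-06). Rank 12 had the largest fall, from 122 and 196 CPM to 68.9 and 61.7 (log2 change -1.28, adjusted p = 5.16e-05). Without replicate 2 of 3 dpf the members' median log2 change was -0.03, against -0.13 with all libraries. In all, 31 members were called in none of the 4 comparisons among high ages. No share over all tested Gene IDs is given beside this count, so nothing is read from it.

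**Figure D4:**
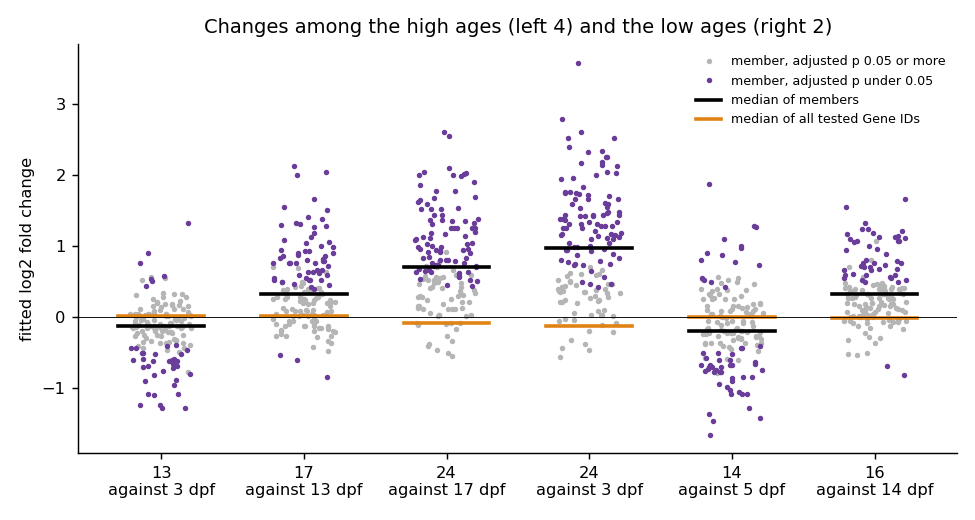
Fitted log2 fold change of each member (points, purple where the adjusted p is under 0.05) in 4 comparisons among the high ages and 2 among the low ages, with the median of the 150 members in black and of all tested Gene IDs in orange. The members' median is 0.97 in 24 against 3 dpf, where all the purple points are above 0, and -0.13 in 13 against 3 dpf, while the orange medians lie between -0.13 and 0.02.

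Among the low ages, the lowest mean was at 14 dpf in 88 members, at 5 dpf in 54 and at 16 dpf in 8. No share over all tested Gene IDs is given beside these counts, so they are a description only. From 5 to 14 dpf, 15 members rose and 41 fell, where 27.1% of all tested Gene IDs rose and 28.7% fell, 55.7% in all (edgeR, adjusted p under 0.05). The share of members that changed, 37.3%, was below that of all Gene IDs, and the share that fell, 27.3%, was near it, so nothing is read from these counts about the members as a group. The largest fall was at rank 63, from 13.7 and 11.6 CPM to 3.07 and 4.87 (log2 change -1.66, adjusted p = 3.9e-06). The largest rise was at rank 119, from 1.91 and 1.73 CPM to 7.17 and 6.44 (log2 change 1.88, adjusted p = 5.45e-05). Without replicate 1 of 5 dpf the members' median log2 change was -0.13, against -0.2 with all libraries.

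From 14 to 16 dpf, 45 members (30%) rose and 2 (1.33%) fell (edgeR, adjusted p under 0.05). Over all tested Gene IDs 17.9% rose and 15.7% fell, 33.6% in all. The share of members that changed, 31.3%, was near that of all Gene IDs, and nothing is read from it. Both ages were used by the rule, and its part in the directions was not tested. The median log2 change was 0.32 in the members and -0.01 over all Gene IDs. The largest rise was at rank 94, with 5.63 and 4.71 CPM at 14 dpf and 17.4 and 15.4 at 16 dpf (log2 change 1.66, adjusted p = 1.38e-05). At 17 dpf the same member had 53.1 and 38.7 CPM, so its 16 dpf libraries lay between those of the ages on either side. Without replicate 2 of 16 dpf the members' median log2 change was 0.29. With the 4 libraries alone 81 members changed, and no share over all tested Gene IDs is given for that fit. On unscaled totals 60 members were higher and 2 lower, where 21.9% of all tested Gene IDs were higher and 10.2% lower.

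The crossing from 16 to 17 dpf depended most on the scaling. The TMM factor of a library lay between 0.39 and 0.66 on days 17 and 24, and between 1.22 and 1.41 before that. On unscaled library totals the members' median ratio of 17 to 16 dpf was 1.07 and that of all Gene IDs 0.507. All 150 members met both limits with DESeq2's size factors and with upper-quartile scaling, and 27 of 150 did on unscaled totals. The first 2 are close to TMM, so little change was possible there. On the log2 scale DESeq2's factors were within 0.03 of TMM. The upper-quartile ones differed most in replicate 2 of 17 dpf (-0.17). For the other 123, the lowest high age on totals was 17 dpf in 84 and 24 dpf in 39. The other crossings moved little, with totals giving a median 2.21-fold lower level at 5 than at 3 dpf, 2.07-fold higher at 13 than at 5 dpf and 2.47-fold lower at 14 than at 13 dpf.

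The 27 members that met the limits under all 4 scalings spread from rank 1 to rank 132, with 17 of them in ranks 1 to 50. Their median level was 41.7 and 47.2 CPM on day 3, 41.3 and 40.9 on day 13, 107 and 89.5 on day 17, and 156 and 172 on day 24. At the low ages it was 20.9 and 16.8 CPM on day 5, 13 and 14.5 on day 14, and 21.9 and 24.4 on day 16. On totals, 24 of the 27 had all 8 high-age libraries above all 6 low-age ones, an order seen in 0.628% of all tested Gene IDs. The subset was chosen after its values were seen and is a description only.

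**Figure D5:**
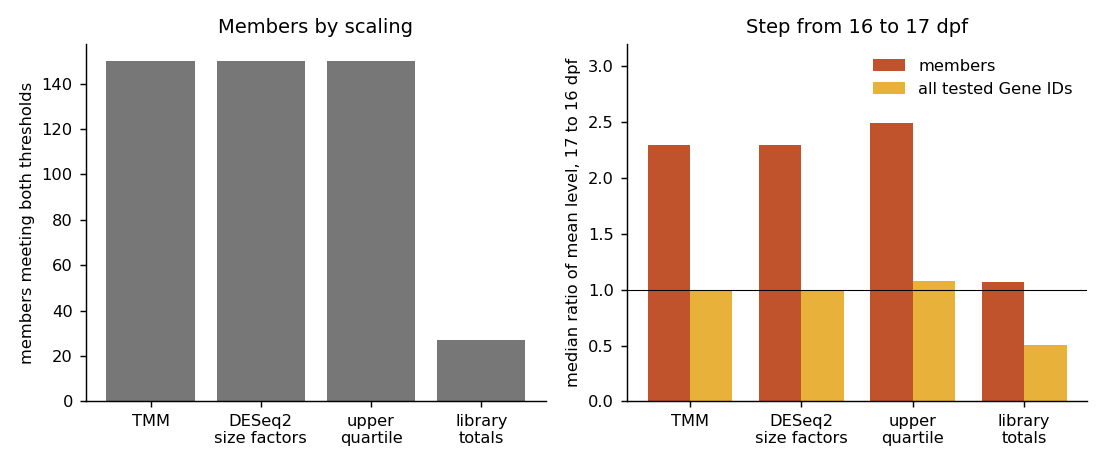
Left, the number of the 150 members that met both limits of the rule under each of 4 scalings; right, the median over members (red) and over all tested Gene IDs (yellow) of the ratio of the mean level at 17 dpf to that at 16 dpf, with a line at 1. The number is 150 under the first 3 scalings and 27 on library totals, where the median ratios are 1.07 and 0.507.

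Most members had several assembled transcripts, but in most of them 1 transcript held the larger part of the counts. The members had 1444 transcripts, a median of 7 each against 5 for all tested Gene IDs, from 1 transcript in 4 members to 105 at rank 69. The transcript with most counts held a median of 74.2% of a member's counts, against 85.6% over all tested Gene IDs, and more than 50% in 121 members. In 124 members that transcript met both limits by itself, and 25 members had at least 2 transcripts that did. Of the 404 member transcripts that passed a low-count filter of their own, 289 had their lowest high-age mean above their highest low-age mean. The opposite order, with every low age above every high age, was seen in 0. The members were chosen on the sums of these same transcripts, so all these counts follow in large part from the choice. No share over the transcripts of other Gene IDs is given beside them. Rank 69 showed the alternation over its 105 transcripts together, with 934 and 1009 CPM on day 3, 610 and 616 on day 5, 1008 and 969.9 on day 13 and 518 and 523 on day 14. It then had 560.4 and 583 CPM on day 16, 1854 and 1487 on day 17 and 3536 and 4436 on day 24. Its leading transcript held 44.7% of its counts. Values more than 1e-06 from a whole number made up a median of 4.76% of a member's transcript values and 0% over all tested Gene IDs. RSEM gives such values where it divides reads that match several transcripts. Whether those were transcripts of the same Gene ID or of other Gene IDs was not tested.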

How the data were processed

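RNA of whole fry was sequenced in 14 libraries, grouped by the age in the labels. The authors deposited expected counts, in a table with a line for each of 172513 assembled transcripts and no gene names. RSEM, DESeq2, Trimmomatic 0.36, FastQC and CASAVA 1.9.1 are named, without order, by the submitters' processing notes. Whether counting used strand, and any genome build, is not stated there.

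Counts were summed per all-digit Gene ID and rounded, which left 5672 transcripts with other Gene IDs out; without rounding the same 150 members were found. The filterByExpr function of edgeR 4.0.16 (R 4.3.3, minimum count 10) kept 18644 Gene IDs. A single quasi-likelihood fit of all 14 libraries, with TMM scaling and age as its term, was used for 6 comparisons, each adjusted by Benjamini-Hochberg over all Gene IDs; it was tested on simulated data. Library totals of 1460853 to 8837320 counts, and 2 libraries per age, limit the precision. Alternatives were other scalings (DESeq2 1.42.0), filters, tests (limma 3.58.1), the rule on replicate 1 or 2 alone, and left-out libraries. The members and comparisons were chosen with earlier results of these data known. The rule for printed IDs took the 2 largest ratios and the 2 largest significant falls from 3 to 24 dpf, of which there were 0; members named by rank were picked after their values were seen. Pathway lists need gene symbols and were not used. Replicate numbers did not pair the samples.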

Additional observations from a re-analysis of the deposited data

How the results depend on the processing

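Of 225 alternative values for the counts of members and Gene IDs, 211 stayed within 1.5 times the reported count. Many of these values left out a single library. Counts of changed members take rises and falls together, so a turn in direction does not show in them. Between days 3 and 24, 96 members changed both with TMM and on unscaled totals, but the 96 rises became 19 rises and 77 falls. On unscaled library totals 43 Gene IDs met both limits, 27 members did, and 516 Gene IDs met the mirrored pattern. Separate libraries were seen there in 40 members and in 0.628% of all tested Gene IDs. Between days 13 and 17, 117 members changed, against 70.3% of all tested Gene IDs. Between days 17 and 24, 41 did, against 28.6%. The members' median log2 change turned to -0.87 between days 13 and 17 and to -0.53 between days 3 and 24. With the 4 libraries of a comparison alone, 51 members changed between days 17 and 24 and 81 between days 14 and 16; fewer samples then set the spread, and for totals the cause was not tested. DESeq2's size factors, upper-quartile scaling, both filters, the DESeq2 test and limma-voom kept each count of changed members within 1.5 times.

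When libraries were left out singly there were 245 to 298 Gene IDs that met both limits, 143 to 150 members that did, 312 to 351 for the mirrored pattern and 143 to 145 members with separate libraries. Changed members ranged from 24 to 43 between days 3 and 13, 35 to 64 between days 13 and 17, 49 to 89 between days 17 and 24, 79 to 97 between days 3 and 24, 36 to 63 between days 5 and 14 and 28 to 53 between days 14 and 16. An age left with 1 library was assumed to vary like the others. No shares over all tested Gene IDs are given beside these counts of changed members, so nothing is read from their ranges. By replicate 1 alone 126 members met both limits, and by replicate 2 alone 136. The members were chosen on the means of these same libraries. Counts of members that met the limits or had separate libraries therefore follow in large part from the choice and are no separate check.

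Over 21 pairs of ages, deviations of same-numbered samples correlated at -0.07 to 0.05. With the replicate block 40, 60, 82, 95, 55 and 46 members changed in the 6 comparisons in the order above, which moved no count by over 1.5 times. Depth was lowest at 24 dpf, where the median member had 44 and 50 counts. The separate-library counts with a library left out were added after seeing the data.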
